A study of Rattus norvegicus with 6 samples.

Results

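The genes described here encode the protein-folding and quality-control machinery of the endoplasmic reticulum (ER). They are 36 genes chosen by symbol, namely 13 chaperones, 6 disulfide enzymes, 11 genes of ER-associated degradation, 4 unfolded protein sensors and their effector, and 2 translocon subunits. All 36 had an entry in the deposited table of 20422 genes, and all 36 were among the 16182 genes with enough counts to be tested. The cells were primary oligodendrocytes, which make the myelin of the brain and spinal cord, grown from the brains of rats at postnatal day 1. They received 0.01 mM cholesterol in water-soluble form for 12 h (3 libraries) or phosphate-buffered saline (PBS) for 12 h (3 libraries). Neither the rat strain nor the number of animals per culture was given in the sources used here, nor whether the 3 libraries of each treatment stem from different cultures. The p-values therefore cover the spread among these libraries alone, and that spread may be technical. Cholesterol of this form usually comes bound to cyclodextrin, and cells given the carrier alone were not analysed here.

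Secreted and membrane proteins enter the ER through the Sec61 channel and fold there with the help of chaperones and disulfide-forming enzymes. Proteins that fail to fold are recognised by lectins, pulled back through the membrane by a complex built around the ubiquitin ligase Syvn1 and its partner Sel1l, and destroyed by the proteasome. When unfolded proteins build up, the sensors Ern1 (IRE1), Eif2ak3 (PERK) and Atf6 raise the transcription of this machinery, in part through the transcription factor Xbp1. Oligodendrocytes put large amounts of lipid and membrane protein through the ER when they make myelin, and the cholesterol-sensing machinery sits in the same membrane.

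Many of these genes share a short promoter element, the ER stress response element (ERSE), to which Atf6 binds together with the factor NF-Y. The sequences are shown because they tie the genes together independently of their measured values. In the RefSeq promoter table (build GRCr8, 250 bases before to 50 bases after the gene start), 27 of the 36 genes had an entry. ERSE was searched on both strands as CCAAT and CCACG with 9 free bases between them, and it was found in 9 of those 27 genes (33.3%), against 22 of all 33469 promoters of this length (0.0657%). The related element ERSE-II, searched on both strands as ATTGG and CCACG with 1 free base between them, was found in 3 of the 27 (11.1%), against 17 of 33469 (0.0508%). The element is a known trait of this gene family, so its high share here is a description and no test. Members were counted by gene (27 genes, 28 promoters), and the background by promoter, with the members' own promoters included. A match describes letters in this window and was not tested as a binding site. The stretches below, from most of these genes, are printed 5′ to 3′ in the direction of the motif, with its fixed bases in capitals and 10 bases on either side.
Hspa5 ERSE (chr3:38452963-38453001, plus strand): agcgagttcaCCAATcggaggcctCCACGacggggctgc
Hsp90b1 ERSE, distal (chr7:23012441-23012479, minus strand): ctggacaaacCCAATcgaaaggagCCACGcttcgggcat
Hsp90b1 ERSE, proximal (chr7:23012337-23012375, plus strand): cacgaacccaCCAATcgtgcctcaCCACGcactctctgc
Calr ERSE (chr19:40213125-40213163, minus strand): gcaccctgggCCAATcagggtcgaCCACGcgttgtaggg
Creld2 ERSE (chr7:121789229-121789267, minus strand): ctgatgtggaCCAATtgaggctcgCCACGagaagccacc
Dnajc3 ERSE (chr15:102432524-102432562, plus strand): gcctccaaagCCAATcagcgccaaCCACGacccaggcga
Ero1b ERSE (chr17:92941448-92941486, minus strand): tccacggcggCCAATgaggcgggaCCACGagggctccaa
Derl3 ERSE (chr20:12766591-12766629, plus strand): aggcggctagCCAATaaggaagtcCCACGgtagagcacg
Xbp1 ERSE (chr14:84604548-84604586, plus strand): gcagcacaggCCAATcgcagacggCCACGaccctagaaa
Hyou1 ERSE-II, distal (chr8:53602684-53602714, minus strand): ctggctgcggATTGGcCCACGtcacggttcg
Hyou1 ERSE-II, proximal (chr8:53602784-53602814, minus strand): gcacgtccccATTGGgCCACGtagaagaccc
Dnajb11 ERSE-II (chr11:91672790-91672820, minus strand): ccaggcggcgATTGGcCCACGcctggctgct
Herpud1 ERSE-II (chr19:10614811-10614841, minus strand): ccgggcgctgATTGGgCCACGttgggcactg

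The position of the element differed between genes. In Hspa5 it spanned bases -43 to -25 from the gene start, whereas in Calr it lay far upstream, at -232 to -214, and on the opposite strand to the gene. Hsp90b1 held a pair of elements, at -176 to -158 on the strand of the gene and at -72 to -54 on the opposite strand. The core of a further element of the unfolded protein response (TGACGTG, both strands) was present in 605 of 33469 promoters (1.81%) and in 2 of the 27 genes. These were Hspa5, at -135 to -129, and Hyou1, at -191 to -185, where it overlapped the distal ERSE-II. The whole 300-base window is shown for Hsp90b1 and Calr, the chaperones with the largest falls below, in the direction of the gene and with the fixed bases of ERSE in capitals (its complement where it lies on the opposite strand).
Hsp90b1 promoter (chr7:23012244-23012543, minus strand): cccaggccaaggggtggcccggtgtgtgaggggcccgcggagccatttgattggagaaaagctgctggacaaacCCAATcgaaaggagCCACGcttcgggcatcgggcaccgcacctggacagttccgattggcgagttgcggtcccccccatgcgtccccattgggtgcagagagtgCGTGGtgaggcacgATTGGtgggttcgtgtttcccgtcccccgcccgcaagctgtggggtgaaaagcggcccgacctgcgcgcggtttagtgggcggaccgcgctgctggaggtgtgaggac
Calr promoter (chr19:40213117-40213416, plus strand): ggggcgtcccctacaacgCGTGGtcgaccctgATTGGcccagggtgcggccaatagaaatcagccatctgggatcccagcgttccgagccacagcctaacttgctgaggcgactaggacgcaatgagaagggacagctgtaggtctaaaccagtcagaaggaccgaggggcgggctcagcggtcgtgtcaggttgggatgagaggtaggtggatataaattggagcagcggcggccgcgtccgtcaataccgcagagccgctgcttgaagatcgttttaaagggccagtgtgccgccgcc

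The libraries held between 63769532 and 67656224 counts after cholesterol and between 68902794 and 70878378 with PBS. The chi-square of counts divided by its degrees of freedom was 14.0 to 20.5 for pairs of cholesterol libraries and 8.19 to 9.48 for pairs of PBS libraries, so no library was a repeat of another. All 10 markers of the oligodendrocyte lineage were present, with a summed level of 23738 to 27423 CPM (counts scaled to library depth) after cholesterol and 15497 to 15857 CPM with PBS. Markers of other cells were present as well, and none of the 50 markers in the table was at 0 in any library. The 12 microglial markers summed to 286 to 386 CPM after cholesterol and 469 to 493 CPM with PBS (8 lower and 1 higher). The 9 astrocyte markers summed to 2638 to 2917 CPM after cholesterol and 1759 to 1764 CPM with PBS (6 higher and 2 lower). The 9 neuron markers summed to 721 to 750 CPM after cholesterol and 791 to 826 CPM with PBS (1 lower and 0 higher). By the same test, given below, 19.7% of all genes tested were lower and 20.5% higher. The part of these shifts in the results below was not tested, and in bulk RNA fewer cells of a type and less RNA per cell cannot be told apart.

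After cholesterol these 36 transcripts were lower in sum, by a modest amount. Of the 36 genes, 20 fell, 2 rose and 14 did not pass the test, which was edgeR's quasi-likelihood test over all genes with an adjusted p under 0.05. Over all 16182 genes tested, 19.7% were lower and 20.5% higher (40.3% in either direction). The number of falls among the 36 genes stood well above this background and the number of rises below it. These genes were chosen with earlier results of these data known, so the comparison is a description and not independent support. The median log2 fold change of the 36 genes was -0.18, against 0.01 over all genes tested. The largest falls were those of the chaperone Calr and of Edem1, a mannosidase-like protein of the degradation pathway, the only members to change by at least 1.5-fold. Together the 36 transcripts made up 0.589%, 0.582% and 0.601% of scaled counts in the 3 cholesterol libraries, against 0.720%, 0.700% and 0.718% in the 3 PBS libraries, and the groups did not overlap. Gene by gene, the libraries of the groups did not overlap in 24 members that were lower and 3 that were higher after cholesterol. Such separation was common, at 25.7% (lower) and 26.6% (higher) of all genes tested, or 52.3% in either direction, so for a single gene it says little.

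**Figure D1:**
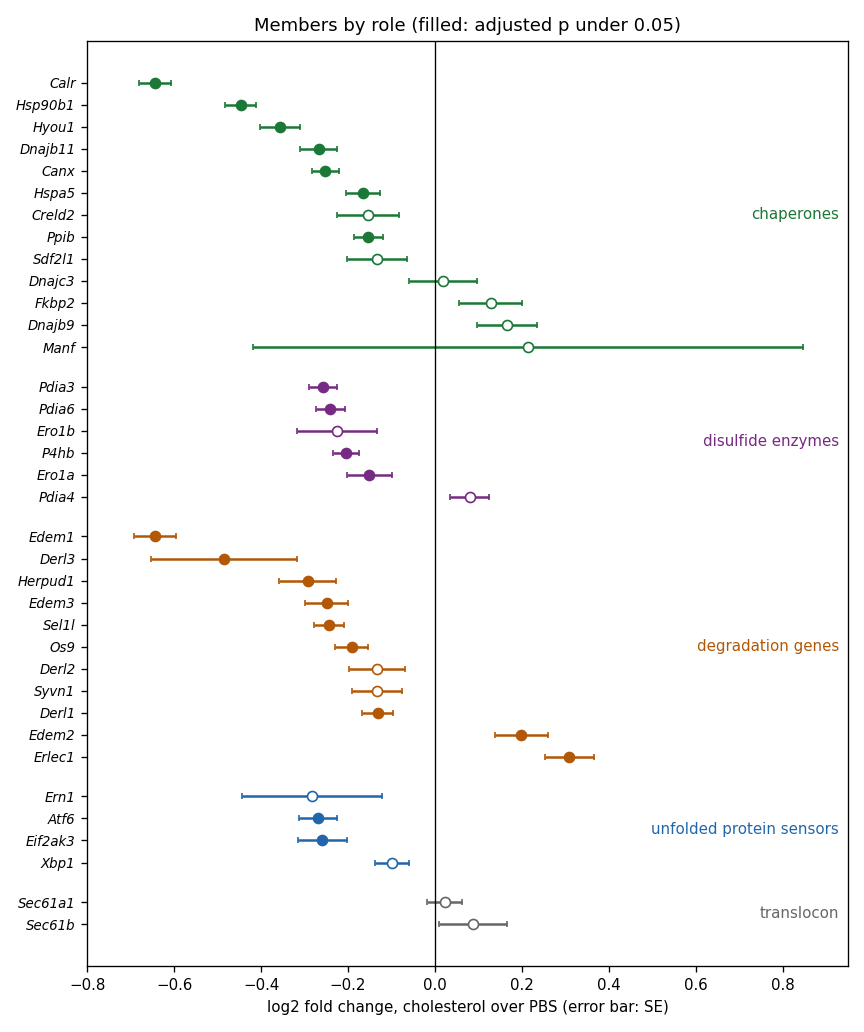
The log2 fold change of each gene, cholesterol over PBS, is plotted by role, with its standard error as the bar; filled points passed an adjusted p of 0.05 and open points did not. Calr and Edem1 lie farthest to the left at -0.64, Erlec1 and Edem2 are the filled points on the right, and the wide bar of Manf belongs to its low count.

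The chaperones that hold nascent glycoproteins fell. Calr, calreticulin, a calcium-binding lectin chaperone of the ER lumen, had 634, 590.4 and 606 CPM in cholesterol libraries, against 963, 922 and 977 CPM in PBS libraries. Every cholesterol value lay far below every PBS value, and the log2 fold change was -0.64 ± 0.037 (SE, adjusted p = 1.62e-06). Canx, calnexin, its membrane-bound counterpart, had 1029.8, 1025 and 1045 CPM in cholesterol libraries and 1265, 1219 and 1206 CPM in PBS libraries. The groups were again apart, at a smaller log2 fold change of -0.25 ± 0.030 (SE, adjusted p = 1.22e-04).

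Hspa5 encodes BiP, the Hsp70-type chaperone of the ER lumen that also holds the sensors inactive, and it fell little. It had 467, 464 and 499.9 CPM in cholesterol libraries, against 535, 518 and 552 CPM in PBS libraries. The highest cholesterol library came close to the lowest PBS library without reaching it, and the log2 fold change was -0.17 ± 0.040 (SE, adjusted p = 0.00703). Hsp90b1, the Hsp90-type chaperone of the ER, fell more. Its levels were 483, 488 and 511 CPM in cholesterol libraries and 689.5, 653 and 680.0 CPM in PBS libraries, with a fall of 0.45 on the log2 scale (SE 0.036, adjusted p = 9.80e-06). The deposited FPKM ratio of Hspa5 to Hsp90b1 was 1.19, 1.17 and 1.21 in cholesterol libraries, against 0.958, 0.981 and 1.00 in PBS libraries. This ratio, chosen after the values were seen, was separated between groups, with an exact two-sided permutation p of 0.1, the smallest that 3 against 3 libraries can give. Since the pair was picked from these same values, its separation is a description and not independent support.

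The helpers of BiP divided. Hyou1, a large chaperone that recharges BiP with nucleotide, had 147, 137 and 149.7 CPM in cholesterol libraries and 193, 177 and 186 CPM in PBS libraries, and fell by 0.36 on the log2 scale (SE 0.046, adjusted p = 1.78e-04). Dnajb11, a J-domain co-chaperone that brings unfolded clients to BiP, had 98.2, 95.1 and 103 CPM in cholesterol libraries and 122, 116 and 119 CPM in PBS libraries, and fell by 0.27 (SE 0.042, adjusted p = 6.09e-04). In neither gene did the groups overlap. The other J-domain proteins did not pass. Dnajb9, which acts on Ern1 through BiP, averaged 23.7 ± 0.528 CPM after cholesterol and 21.2 ± 1.49 CPM with PBS (SD, n = 3 each), a log2 fold change of 0.17 with an adjusted p of 0.0817. Dnajc3 averaged 33.1 ± 3.53 CPM after cholesterol and 32.7 ± 1.40 CPM with PBS (0.02, adjusted p = 0.878). The sign of this small difference turned without cholesterol replicate 2 (-0.06) or PBS replicate 1 (-0.01).

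Among the remaining chaperones, Ppib, cyclophilin B, a prolyl isomerase, had 222, 221 and 229 CPM in cholesterol libraries and 251, 244 and 252 CPM in PBS libraries. It fell by 0.15 on the log2 scale (SE 0.034, adjusted p = 0.00457), a small change against a tight spread. Sdf2l1, a partner of Dnajb11, averaged 27.2 ± 1.38 CPM after cholesterol and 29.8 ± 1.94 CPM with PBS, with overlapping groups (-0.13, adjusted p = 0.147). Creld2, a protein induced by ER stress, averaged 28.8 ± 2.55 CPM after cholesterol and 32.1 ± 0.683 CPM with PBS (-0.15, adjusted p = 0.110), and passed without cholesterol replicate 2 (-0.21, adjusted p = 0.0477). The prolyl isomerase Fkbp2 averaged 25.4 ± 1.55 CPM after cholesterol and 23.2 ± 1.49 CPM with PBS (0.13, adjusted p = 0.186). Manf, a secreted factor that binds BiP, was scarce, with 45, 9 and 36 counts in cholesterol libraries and 23, 14 and 46 counts in PBS libraries, so the direction of its log2 fold change (0.21 ± 0.633, SE) could not be read at this depth and turned without cholesterol replicate 1 (-0.21) or PBS replicate 2 (-0.10).

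Of the 13 chaperones, then, 7 fell and 0 rose under this test, against 19.7% lower and 20.5% higher over all genes tested. The group had a median log2 fold change of -0.15. At an unadjusted edgeR p under 0.05 the number higher was 1, Dnajb9, and DESeq2 called 0 chaperones higher. Summed over the group, the level was 3219, 3167 and 3277 CPM in cholesterol libraries, against 4154, 3990.4 and 4114 CPM in PBS libraries, a ratio of means of 0.788. Abundant genes weigh most in this sum. Calr averaged 610 CPM after cholesterol and 954 CPM with PBS, and Canx 1033 and 1230 CPM.

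**Figure D2:**
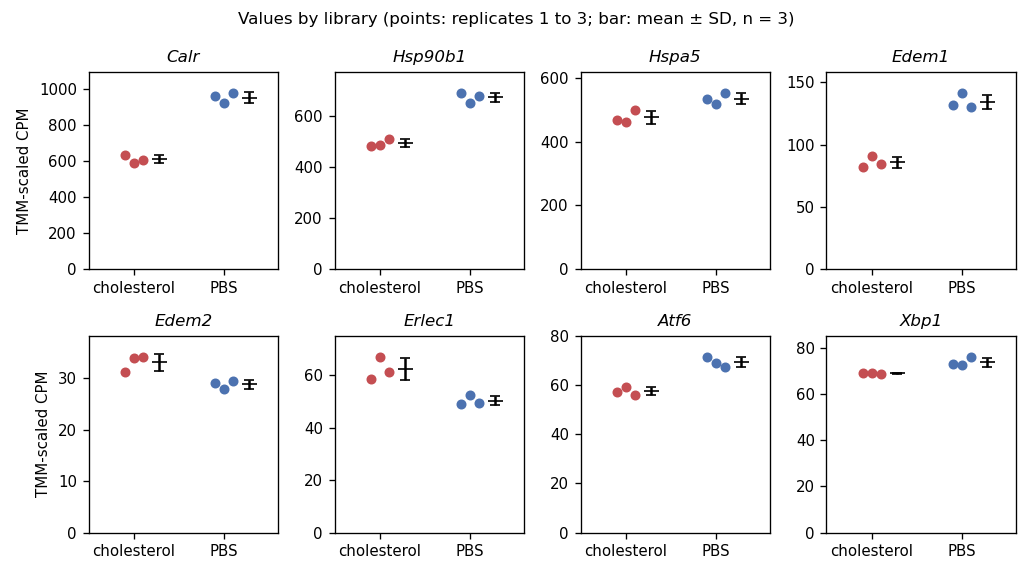
The TMM-scaled CPM of 8 genes are plotted for each of the 3 cholesterol libraries (left, red) and the 3 PBS libraries (right, blue), each axis starting at 0, with black bars for mean ± SD. The groups of all 8 genes are apart, with cholesterol below PBS for 6 of them and above PBS for Edem2 and Erlec1, a separation that 52.3% of all genes tested showed in either direction; Xbp1 did not pass the test although its groups do not touch.

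The disulfide enzymes, which form and rearrange the bonds between cysteines of folding proteins, moved more evenly. Of the 6 genes, 4 fell, 0 rose and 2 did not pass, against 19.7% lower and 20.5% higher over all genes tested. The 6 genes had a median log2 fold change of -0.22. The number higher was also 0 at an unadjusted p under 0.05 and by DESeq2. Pdia3, which works with Calr and Canx on glycoproteins, had 445, 445 and 462 CPM in cholesterol libraries and 545, 527 and 543 CPM in PBS libraries (-0.26 ± 0.033, SE, adjusted p = 1.64e-04). P4hb, protein disulfide isomerase itself, had 416, 419 and 412 CPM in cholesterol libraries and 479.7, 470.4 and 486 CPM in PBS libraries (-0.20 ± 0.031, SE, adjusted p = 4.64e-04). Pdia6, another isomerase, had 184, 181 and 185 CPM in cholesterol libraries and 214, 214 and 222 CPM in PBS libraries (-0.24 ± 0.033, SE, adjusted p = 2.78e-04). In each of these 3 genes the groups were well separated.

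Pdia4, an isomerase with an extra thioredoxin-like domain, went the other way without passing. It averaged 161 ± 7.33 CPM after cholesterol and 152 ± 6.01 CPM with PBS (SD, n = 3 each), with overlapping groups and a log2 fold change of 0.08 (adjusted p = 0.186), although it passed without cholesterol replicate 2 (0.12, adjusted p = 0.0399). The oxidase Ero1a, which recharges the isomerases, had 36.5, 36.2 and 35.7 CPM in cholesterol libraries and 41.5, 38.6 and 40.1 CPM in PBS libraries. Its log2 fold change of -0.15 ± 0.053 (SE) passed only narrowly (adjusted p = 0.0426), and the call ended without cholesterol replicate 1, 2 or 3 or PBS replicate 1 or 3, at adjusted p = 0.0694, 0.0605, 0.0787, 0.140 and 0.0859. Its relative Ero1b averaged 13.0 ± 1.39 CPM after cholesterol and 15.3 ± 0.715 CPM with PBS (-0.23, adjusted p = 0.0765), and passed without cholesterol replicate 3 (-0.32, adjusted p = 0.0155).

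ER-associated degradation was the one role with changes in both directions. Of its 11 genes, 7 fell, 2 rose and 2 did not pass, against 19.7% lower and 20.5% higher over all genes tested. The 11 genes had a median log2 fold change of -0.19. The Edem proteins, which trim mannose from misfolded glycoproteins and so mark them for removal, divided. Edem1 had 82.2, 90.9 and 84.3 CPM in cholesterol libraries, against 132, 141 and 129.9 CPM in PBS libraries (-0.64 ± 0.049, SE, adjusted p = 6.82e-06). Edem3 had 126, 116 and 133 CPM in cholesterol libraries and 151, 151 and 144 CPM in PBS libraries (-0.25 ± 0.050, SE, adjusted p = 0.00271). Edem2, which makes the first cut, had 31.2, 33.9 and 34.2 CPM in cholesterol libraries and 29.2, 27.9 and 29.4 CPM in PBS libraries, a rise of 0.20 ± 0.060 on the log2 scale (SE, adjusted p = 0.0227). The rise of Edem2 was the less certain of these changes, since its call ended without cholesterol replicate 2 or 3 or PBS replicate 1, 2 or 3 (adjusted p = 0.0581, 0.0564, 0.0559, 0.0837 and 0.0504) and with the length correction described below (0.13, adjusted p = 0.107). The FPKM ratio of Edem2 to Edem1 was 1.07, 1.05 and 1.14 in cholesterol libraries, against 0.626, 0.559 and 0.640 in PBS libraries.

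The lectins Os9 and Erlec1, which pass trimmed glycoproteins to Sel1l, also moved apart. Os9 had 253, 243 and 266 CPM in cholesterol libraries and 288, 288 and 294 CPM in PBS libraries (-0.19 ± 0.038, SE, adjusted p = 0.00269). Erlec1 had 58.7, 67.0 and 61.2 CPM in cholesterol libraries and 48.9, 52.3 and 49.5 CPM in PBS libraries (0.31 ± 0.056, SE, adjusted p = 0.00154). No library of one group entered the range of the other in either gene. The FPKM ratio of Erlec1 to Os9 was 0.483, 0.574 and 0.481 in cholesterol libraries and 0.354, 0.379 and 0.351 in PBS libraries. Both ratios, of Edem2 to Edem1 and of Erlec1 to Os9, were chosen after the values were seen. Each had an exact two-sided permutation p of 0.1, the smallest possible here, and 0.1 after adjustment over the 3 ratios computed. Each also pairs a gene higher in every cholesterol library with a gene lower in every cholesterol library. The separation and its p were therefore fixed in advance and add nothing to the values of the single genes.

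The membrane complex that extracts and ubiquitinates the clients was lower in its scaffold. Sel1l, the adaptor that holds the complex together, had 184, 177 and 186 CPM in cholesterol libraries and 213, 217 and 217 CPM in PBS libraries (-0.24 ± 0.035, SE, adjusted p = 3.32e-04). Herpud1, a short-lived scaffold that joins ligases to derlins, had 29.5, 32.9 and 30.2 CPM in cholesterol libraries and 39.0, 35.5 and 39.0 CPM in PBS libraries (-0.29 ± 0.065, SE, adjusted p = 0.00482), a call that ended with the replicate block and length correction together (adjusted p = 0.0695). The ligase Syvn1 itself averaged 75.0 ± 6.16 CPM after cholesterol and 82.2 ± 2.15 CPM with PBS (-0.13, adjusted p = 0.0875), and passed without cholesterol replicate 3 (-0.18, adjusted p = 0.0350).

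The derlins, rhomboid-like proteins that help clients back across the membrane, were all lower in value. Derl1 had 113, 111 and 107 CPM in cholesterol libraries and 122, 119 and 121 CPM in PBS libraries (-0.13 ± 0.036, SE, adjusted p = 0.0151), a call that ended without PBS replicate 1 (adjusted p = 0.0623). Derl3, the least abundant, had 3.18, 3.33 and 2.33 CPM in cholesterol libraries and 4.24, 3.74 and 4.41 CPM in PBS libraries (-0.49 ± 0.168, SE, adjusted p = 0.0412). The call for Derl3 ended without cholesterol replicate 1 or 3 or PBS replicate 1, 2 or 3, at adjusted p = 0.0561, 0.112, 0.103, 0.0522 and 0.113. Derl2 averaged 32.1 ± 0.948 CPM after cholesterol and 35.2 ± 2.37 CPM with PBS with overlapping groups (-0.13, adjusted p = 0.123), and passed without PBS replicate 2 (-0.19, adjusted p = 0.0471).

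Of the unfolded protein sensors, Atf6 and Eif2ak3 fell, while Ern1 and its target Xbp1 did not pass. Atf6, a membrane-bound transcription factor released by cleavage, had 57.4, 59.2 and 55.9 CPM in cholesterol libraries and 71.5, 68.8 and 67.5 CPM in PBS libraries (-0.27 ± 0.044, SE, adjusted p = 7.43e-04). Eif2ak3, the kinase PERK that slows translation, had 43.4, 39.0 and 43.4 CPM in cholesterol libraries and 51.8, 48.7 and 50.0 CPM in PBS libraries (-0.26 ± 0.057, SE, adjusted p = 0.00459). In both genes the groups were apart. Ern1, the kinase and endoribonuclease IRE1, had 4.83, 5.72 and 7.26 CPM in cholesterol libraries and 6.14, 7.84 and 7.70 CPM in PBS libraries. These groups overlapped (-0.28 ± 0.161, SE, adjusted p = 0.189), and Ern1 passed without cholesterol replicate 3 (-0.45, adjusted p = 0.0428). Xbp1, the transcription factor whose mRNA Ern1 splices, had 68.9, 68.8 and 68.8 CPM in cholesterol libraries and 72.7, 72.5 and 76.0 CPM in PBS libraries (-0.10 ± 0.039, SE, adjusted p = 0.0640). A count per gene does not separate spliced from unspliced Xbp1 mRNA, and sensor activity was not measured.

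The translocon subunits were close in level between groups. Sec61a1, which forms the channel, averaged 221 ± 9.46 CPM after cholesterol and 217 ± 5.34 CPM with PBS (log2 fold change 0.02 ± 0.040, SE, adjusted p = 0.686). Its sign turned without cholesterol replicate 3 (-0.01). Sec61b, a small accessory subunit, averaged 36.7 ± 3.77 CPM after cholesterol and 34.5 ± 1.71 CPM with PBS (0.09 ± 0.078, SE, adjusted p = 0.404). The length correction turned its sign (-0.01).

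Per length of transcript, the genes spanned a wide range of levels. Calr was the most abundant in both groups, at 284 ± 9.12 FPKM after cholesterol and 441 ± 12.7 FPKM with PBS (SD, n = 3 each). Canx came second (266 ± 4.03 FPKM after cholesterol and 315 ± 7.72 FPKM with PBS) and Ppib next (222 ± 5.49 FPKM after cholesterol and 245 ± 4.38 FPKM with PBS). These neighbours differed by more than their spread in both groups. Hspa5 and Hsp90b1 exchanged places, with Hspa5 at 171 ± 8.03 and Hsp90b1 at 144 ± 5.18 FPKM after cholesterol, against 191 ± 5.84 and 194 ± 5.32 FPKM with PBS, where the pair lay within their spread. Os9 (55.4 FPKM after cholesterol) and Pdia6 (53.1 FPKM) dropped below Sec61a1 (61.2 FPKM) and Sec61b (60.6 FPKM) after cholesterol, having stood at 62.7 and 62.3 FPKM above 59.8 and 56.6 FPKM with PBS, and several of these neighbours differed by less than their spread. Atf6, Eif2ak3 and Ern1 were scarce beside the most abundant chaperones. The chaperones Dnajb9 (7.69 FPKM after cholesterol and 6.80 FPKM with PBS) and Manf lay below Atf6 and Eif2ak3. Xbp1, grouped with the sensors, stood at 35.6 FPKM after cholesterol and 37.8 FPKM with PBS. Atf6 stood at 9.22 FPKM, Eif2ak3 at 8.61 FPKM and Ern1 at 1.53 FPKM after cholesterol, against 11.03, 10.2 and 1.84 FPKM with PBS. At the bottom, Manf stood at 0.347 FPKM after cholesterol and 0.294 FPKM with PBS.

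Falls occurred over the range of levels. The 9 genes with the highest FPKM with PBS, from Calr to Pdia6, all fell. Of the 11 genes with at least 50 FPKM with PBS, 9 fell and 0 rose, the other 2 being the translocon subunits. Among all genes tested at that level, 369 of 1168 (31.6%) were lower and 315 (27.0%) higher. Of the 25 genes under 50 FPKM, 11 fell and 2 rose, against 18.8% lower and 20.0% higher among all 15014 genes tested under that level. The difference between the levels was not tested.

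**Figure D3:**
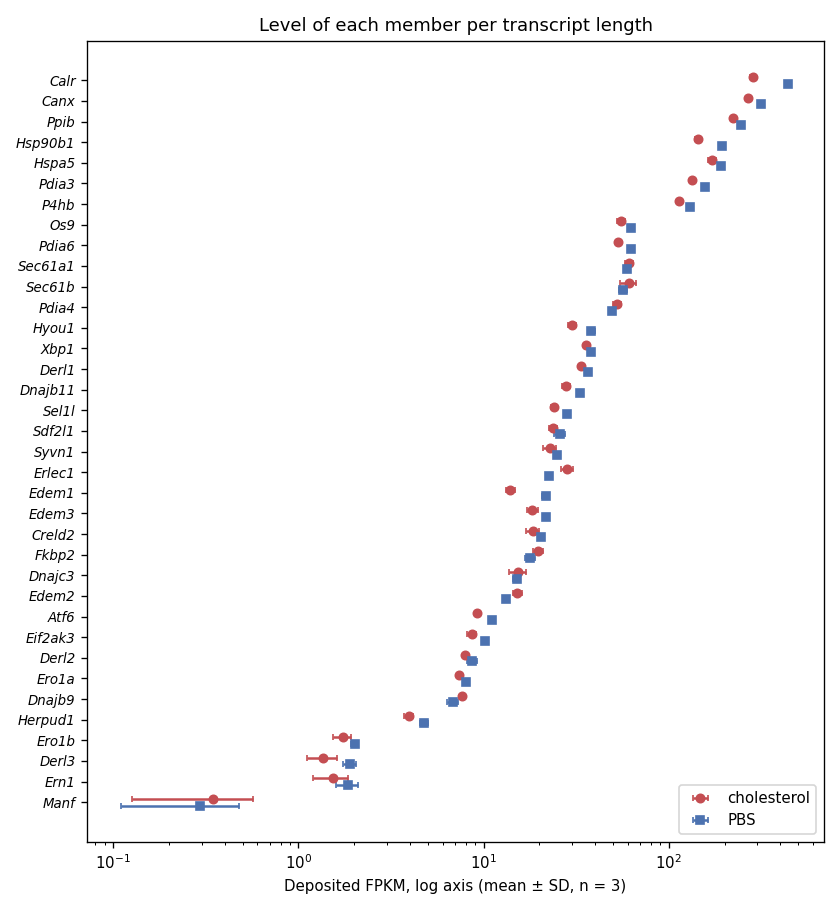
The deposited FPKM of each gene is plotted on a log axis as mean ± SD of 3 libraries, for cholesterol (red circles) and PBS (blue squares), ordered by the PBS mean. Calr leads at 284 FPKM after cholesterol and 441 FPKM with PBS, the cholesterol symbol lies left of the PBS symbol for the 9 most abundant genes, and Manf stands alone near 0.3 FPKM.

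Read by promoter element, the 12 genes with ERSE or ERSE-II comprised 8 that fell and 4 that did not pass (Creld2, Dnajc3, Ero1b and Xbp1), with a median log2 fold change of -0.26. All 3 genes with ERSE-II fell, namely Hyou1, Dnajb11 and Herpud1. The 15 genes whose promoter held neither element comprised 6 that fell, 2 that rose and 7 that did not pass, with a median of -0.13, and the 9 genes without a promoter entry comprised 6 that fell and 3 that did not pass. Edem1 was among the genes that fell without an exact match in the promoter window. An element outside that window or with other letters would have been missed, and genes without an entry were not searched. Whether the element has a part in the falls was not tested. Outside the 36 genes, 26 other symbols held an element, of which 15 were tested. Of these, 4 rose, 3 fell and 8 did not pass, with a median of 0.03. Over all genes tested, 19.7% were lower and 20.5% higher. The differences between these sets, and from those shares, were not tested.

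Other genes of the same pathways, from a list of 110 symbols, were called about as often in either direction. Of the 103 in the table, all tested, 29 rose, 27 fell and 47 did not pass, and their median log2 fold change was 0.02. This balance depended on the length correction, with which 16 rose and 30 fell. The counts by role that follow are without the length correction only. Of 30 further folding and disulfide genes, 11 rose and 3 fell. Further degradation genes fell in 11 and rose in 8 of 28 cases, glycan processing genes fell and rose in 4 each of 15, and translocation genes rose in 4 and fell in 3 of 15. Genes of sensing, retrieval and calcium fell in 6 and rose in 2 of 15 cases. For comparison, 19.7% of all genes tested were lower and 20.5% higher, and differences from these shares were not tested.

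The clearest falls on that list were close partners of the machinery above. Uggt1, the folding sensor that returns glycoproteins to Calr and Canx, averaged 76.2 ± 5.11 CPM after cholesterol and 102 ± 3.84 CPM with PBS (-0.42). Atp2a2, the pump that fills the ER with calcium, averaged 545 ± 26.0 CPM after cholesterol and 674 ± 13.4 CPM with PBS (-0.31). Itpr1, a calcium release channel of the ER, averaged 7.55 ± 0.732 CPM after cholesterol and 12.8 ± 0.624 CPM with PBS (-0.77). Stt3b, a catalytic subunit of oligosaccharyltransferase, fell by 0.26 on the log2 scale. The clearest rises were those of Creb3l2, a membrane-bound transcription factor (0.36), Fbxo6 and Fbxo2, ubiquitin ligase subunits that bind glycoproteins (0.46 and 0.37), and Dpagt1, which starts the assembly of N-glycans (0.33). All 8 had adjusted p values between 1.42e-04 and 5.05e-04.

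Of 16 genes of the PERK and ATF4 branch in the table, Atf4 itself included, 3 fell, 2 rose and 11 did not pass. Their median was -0.10, and 19.7% were lower and 20.5% higher over all genes tested. With the DESeq2 Wald test 5 fell and 2 rose. Atf4, the transcription factor translated when PERK is active, averaged 141 ± 3.94 CPM after cholesterol and 178 ± 3.47 CPM with PBS (-0.34, adjusted p = 6.21e-05). Atf5, a related factor, fell by 0.73 and Ppp1r15b, a phosphatase subunit that restores translation, by 0.13 on the log2 scale. Phgdh, the first enzyme of serine synthesis, averaged 117 ± 3.50 CPM after cholesterol and 85.5 ± 2.59 CPM with PBS (0.46), and Ddit4, an inhibitor of mTOR signalling, rose by 0.33.

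**Figure D4:**
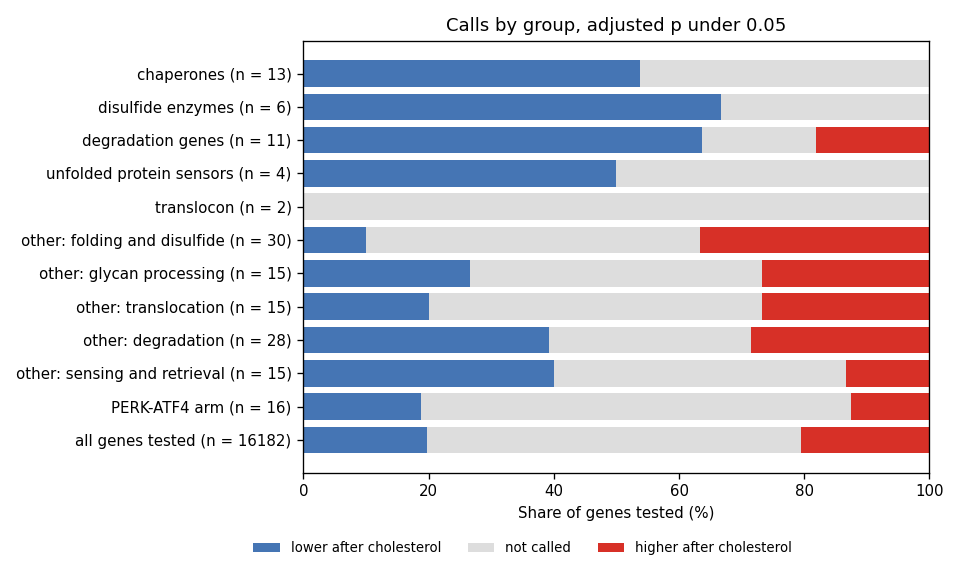
For each group of genes the bar gives the share of genes tested that were lower (blue), not called (grey) or higher (red) after cholesterol at an adjusted p under 0.05, with the number tested beside the name. Blue covers more of the bar for the chaperones, disulfide enzymes, degradation genes and sensors than the 19.7% of all genes tested, whereas the further folding genes show more red than blue. All shares are without the length correction, with which 16 and not 29 genes on the list of other ER genes were higher.

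Transcript length moved with the fold change across the whole table, with a median of 0.08 among the 1619 shortest genes and -0.13 among the 1619 longest, and the 36 genes had a median length of 3.43 kb against 3.16 kb over all genes tested. With a correction for this trend, 22 of the 36 genes were lower and 1 higher, against 19.7% lower and 18.9% higher over all genes tested. Xbp1 (-0.19, adjusted p = 0.00279), Sdf2l1 (-0.25, adjusted p = 0.0109) and Creld2 (-0.26, adjusted p = 0.00960) now passed as lower. The fall of Ero1a (-0.11, adjusted p = 0.108) and the rise of Edem2 no longer passed. Another gene of the table overlaps 13 of the 36, namely Dnajb11, Manf, Ppib, Pdia3, Pdia6, Ero1b, Edem3, Syvn1, Derl1, Derl3, Erlec1, Atf6 and Sec61a1. Whether counting used the strand was not given in the sources used here, so the counts of these genes are less certain. Among the 23 that overlap none, 12 were lower and 1 higher, against 19.7% lower and 20.5% higher over all genes tested.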

How the data were processed

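Poly(A) RNA of 6 libraries was read in pairs on an Illumina NovaSeq with a strand-keeping dUTP method, per the labels' protocols. The deposited table holds, per the file headers, raw counts for each Ensembl gene identifier beside FPKM, which scale by transcript length and depth. Named without roles in the submitters' processing notes are the build rn6, StringTie 2.1.6, HISAT2 2.2.1 and cutadapt 1.9, with edgeR and DESeq2. How the authors derived the counts was not given in the sources used here.

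Counts were tested with edgeR 4.0.16 (R 4.3.3): filterByExpr, TMM scaling, glmQLFit and glmQLFTest, two-sided, no replicate term, Benjamini-Hochberg adjustment over all 16182 genes tested, called at an adjusted p under 0.05. CPM are TMM-scaled, and the SE is the log2 fold change divided by the square root of F. FPKM were used for levels between genes. Ratios of 2 members used exact permutation tests (scipy 1.17.1). The method was checked on simulated data. At these depths 3 counts equal 0.0425 to 0.0471 CPM, covering counting error only.

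The members and lists were chosen with earlier results of these data known. All 36 members are named, with every library value for those past the threshold whose groups do not overlap and for Hspa5, Xbp1, Atf6, Ern1 and Eif2ak3. Of the other lists, up to 4 genes per direction with the smallest p are named. Alternatives were other filters, DESeq2 1.42.0 size factors and Wald test, scaling to the library median, limma 3.58.1 on log2(FPKM + 1) and log2(FPKM + 0.1), a length correction (lowess on length, from count over FPKM), a replicate block and leaving out each library. Promoters came from RefSeq (GRCr8), matched by symbol; 1 matched stretch is not reported here.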

Additional observations from a re-analysis of the deposited data

How the results depend on the processing

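Between 17 and 22 of the 36 genes were lower under every alternative tried, including each library left out in turn, and 1 or 2 were higher. The filter at a mean of 5 FPKM tested only 31 of them, of which 18 were lower and 2 higher. The share of all genes tested that was lower ran from 14.5% without a filter to 27.2% with that filter. The share higher ran from 15.3% to 28.1% under the same 2 settings. Of the 22 genes called, 17 (16 lower and Erlec1 higher) kept their call under every alternative that tested them, the others being Derl1, Derl3, Ero1a, Herpud1 and Edem2. The number of higher members was 1 with the length correction and 1 with the replicate block and length correction, and 1 to 2 when 1 library was left out. Higher genes on the list of other ER genes numbered 16 with the length correction and 15 with that correction and the block, against 29, while 30 and 27 were lower, against 27. The number of lower genes of the PERK and ATF4 branch was 5 with the DESeq2 Wald test. The median log2 fold change of the members was -0.14 among the 31 that averaged 5 FPKM or more, and -0.15 with limma on log2(FPKM + 1). Members that did not pass and changed sign were Dnajc3 (-0.0543 with the length correction, -0.0577 with the block and length correction, -0.0649 to 0.0884 leaving out 1 library), Sec61b (-0.0145 and -0.0167 with those corrections), Manf (-0.21 to 0.80 leaving out 1 library) and Sec61a1 (-0.0121 to 0.0464 leaving out 1 library). Apart from the length correction's own construction, the cause was not tested.

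Same-numbered libraries did not deviate together (correlations of 0.0012, -0.0375 and -0.0261), and no library correlated best with that of its own number, so the replicate number was not taken as a pairing. With the replicate block, 19 members were lower and 2 higher, with 3165 genes higher and 3056 lower overall. Derl3 (adjusted p = 0.0553) and Ero1a (adjusted p = 0.0774) lost their call and Syvn1 gained one (adjusted p = 0.0472).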
